A study of Rattus norvegicus with 6 samples.

Results

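Glucocorticoids are steroid hormones of the adrenal cortex that reach the liver in the blood. In the hepatocyte, an enzyme of the endoplasmic reticulum regenerates the active hormone from its inert keto form, and the hormone binds a receptor that chaperones hold in the cytoplasm. The occupied receptor enters the nucleus and switches on genes of amino acid breakdown, glucose production and restraint of inflammation. The liver genes described here are 8 genes chosen by name from this pathway, out of 32930 gene rows in the deposited table: the receptor Nr3c1, the hormone-regenerating enzyme Hsd11b1, and the responsive genes Fkbp5, Tsc22d3, Zbtb16, Sgk1, Mt1 and Mt2. Each symbol was found on 1 row, and all 8 passed the filter on low counts.

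Liver RNA was sequenced from 3 animals kept on a high-fat diet with the vehicle, 0.5% sodium carboxymethyl cellulose (HFD group), and from 3 animals kept on that diet and treated with HTG (HTG group), the Huazhuo Tiaozhi granule, a herbal formula. Both groups therefore carried the high-fat diet, for 12 weeks by the series' design text, and no library of a normal diet was analysed here. The labels' titles say HTG where their treatment field says HCG. The labels name rats, the paper's sequencing methods name C57BL/6 J mice, and the identifiers of the gene rows are those of the mouse. The sex and age of these animals and their dose of HTG are not in the labels. The hour of day of the killing, a known influence on glucocorticoid genes, is not given in the sources used here. Estimated counts summed to between 50648778 (HTG library 3) and 90563477 (HTG library 2) per library, and the lowest count of any of the 8 genes in any library was 328. The design text counts 6 animals but the labels do not tie each library to an animal of its own, so the p-values measure only the spread between these samples, which may be technical. Hepatocyte markers were high throughout, with a summed level over 9 genes of 88675 to 105772 CPM in the HFD group and 80178 to 82992 CPM in the HTG group (counts relative to each library's normalised total). Alb made up most of this sum, at 53506 to 74503 CPM. Of the 9 genes, Apoc3 and Apoa2 were higher and Cps1 was lower in the HTG group at an unadjusted p under 0.05. The groups did not overlap in 4 lower genes (Cps1, Alb, Serpina1a and Serpina1b) and 2 higher genes, against 15.5% and 16.5% of all genes tested. The log2 fold change was negative in 6 of the 9. The part of these differences in the results was not tested. In bulk liver, fewer cells of a type and less RNA per cell cannot be told apart.

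The 8 genes spanned a wide range of levels. On the FPKM scale, which divides by transcript length and library size, the mean over the 6 libraries was 576 for Mt2 and 572 for Mt1, which encode metallothioneins, small cysteine-rich proteins that bind zinc and copper. Hsd11b1 followed at 93.7 FPKM, then Tsc22d3 at 15.5, Fkbp5 at 5.83, Nr3c1 at 5.45, Sgk1 at 4.48 and Zbtb16 at 2.09. The order was the same in all 6 libraries between Mt1 and Hsd11b1, between Hsd11b1 and Tsc22d3, between Tsc22d3 and Fkbp5, and between Sgk1 and Zbtb16. Nr3c1 lay above Sgk1 in 5 of 6 libraries. Mt2 against Mt1, and Fkbp5 against Nr3c1, were each the higher gene in 3 of 6, so these neighbours did not differ beyond their spread. The receptor was the steadiest of the 8, with a highest FPKM 1.21 times its lowest over all libraries. For Mt2 that ratio was 18.9.

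No gene of the 8 had an adjusted p under 0.05 over the genes tested (edgeR, quasi-likelihood fit, Benjamini-Hochberg), against 0.0108% of the 18455 genes tested (0.00542% higher in the HTG group and 0.00542% lower). DESeq2 and limma on FPKM also put 0 of the 8 under that threshold. At an unadjusted p under 0.05, 1 gene was lower in the HTG group, Sgk1, and 0 were higher, where 24.7% of all genes tested passed (12.3% higher and 12.4% lower). Sgk1 was also the 1 gene of the 8 whose groups did not overlap, against 32.1% of all genes tested. Neither share of the 8 stood above the background. Their log2 fold changes had a median of -0.34, with 6 negative values, against a median of 0.03 over all genes tested. The smallest two-sided p that an exact permutation test of 3 libraries against 3 can give is 0.1, which Sgk1 reached.

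**Figure D1:**
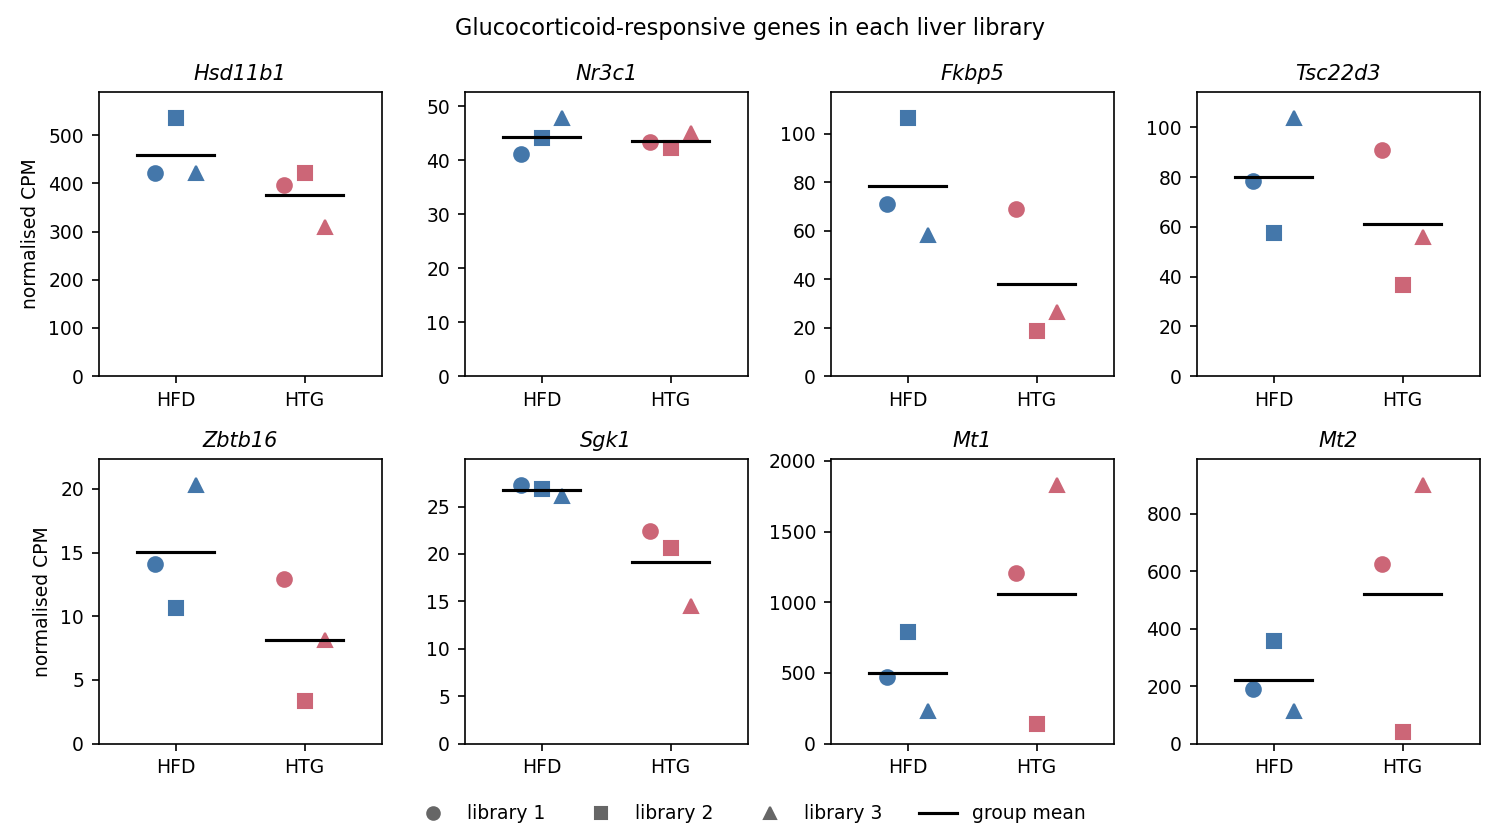
Normalised CPM (vertical axes, from 0, each with its own range) of the 8 genes in the 3 HFD and 3 HTG libraries, where marker shapes give the library number and bars the group mean. Only Sgk1 separates the groups, and HTG library 1 lies within the HFD range for Nr3c1, Fkbp5, Tsc22d3 and Zbtb16.

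The supply of active hormone was examined first. Hsd11b1 (ENSMUSG00000016194, chromosome 1, 192903942 to 192925869, minus strand; the table names no build for its coordinates) encodes 11-beta-hydroxysteroid dehydrogenase type 1, which turns inert keto-glucocorticoid into active hormone. It had 421, 536 and 420 CPM in HFD libraries 1, 2 and 3 and 396, 422 and 309 CPM in HTG libraries 1, 2 and 3. HTG library 2 lay within the HFD range and the other two lay below it. The log2 fold change was -0.29 (standard error 0.22, 95% interval -0.79 to 0.21; edgeR, adjusted p = 0.443).

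H6pd, which supplies the NADPH that this enzyme uses in the endoplasmic reticulum, had 467, 552 and 380 CPM in the HFD libraries and 365, 219 and 350 CPM in the HTG libraries. The groups did not overlap, with a log2 fold change of -0.58 (95% interval -1.18 to 0.02, unadjusted p = 0.0555 by edgeR). Hsd11b2, which inactivates the hormone in kidney, had 0 counts in 5 libraries and was under the limit of 3 fragments (12 counts) in HTG library 2. Serpina6, which encodes the carrier protein for the hormone in plasma, had 296 ± 36.1 CPM in the HFD group and 246 ± 51.1 CPM in the HTG group (SD, n = 3 per group), with overlapping groups. Akr1c6, a steroid-reducing enzyme, was the 1 gene of this list with an unadjusted p under 0.05 (log2 fold change -0.60, edgeR, adjusted p = 0.153), which it lost without HFD library 1 (-0.47) or 3 (-0.59) or HTG library 2 (-0.53) or 3 (-0.54). Of the 6 genes tested besides Hsd11b1, 1 (16.7%) was lower and 0 were higher at an unadjusted p under 0.05. Over all genes tested, 12.4% were lower.

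The receptor lay at a similar level in every library. Nr3c1 (ENSMUSG00000024431, chromosome 18, 39543598 to 39624352, minus strand), which encodes the glucocorticoid receptor, had 41.2, 44.1 and 47.9 CPM in HFD libraries 1, 2 and 3. It had 43.4, 42.3 and 45.1 CPM in HTG libraries 1, 2 and 3, all within the HFD range. The log2 fold change was -0.03 (standard error 0.15, 95% interval -0.37 to 0.32; edgeR, adjusted p = 0.936), and its sign turned to 0.01 with upper-quartile scaling and to 0.03 without HFD library 3. Within the HTG group its highest level was 1.07 times its lowest, and 97.5% of the genes tested with a finite ratio had one at least as large.

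Steroid receptors of this kind depend on chaperones before the hormone binds. Among the 11 other genes of the receptor and chaperone list, 2 (18.2%) were lower and 0 were higher at an unadjusted p under 0.05. The share lower over all genes tested was 12.4%. Hsp90ab1, the constitutive cytosolic HSP90 that keeps the receptor able to bind hormone, had 723, 782 and 820 CPM in the HFD libraries and 560, 342 and 415 CPM in the HTG libraries. Every HTG library lay below every HFD library (log2 fold change -0.82, standard error 0.24, edgeR, adjusted p = 0.091). Hspa4, an HSP70 family protein, went from 105 ± 13.2 to 70.9 ± 2.02 CPM (SD, n = 3 per group; log2 fold change -0.56, edgeR, adjusted p = 0.0981). Nr3c2, the mineralocorticoid receptor, which binds the same hormones, had 8.17 ± 2.59 CPM in the HFD group and 5.45 ± 0.764 CPM in the HTG group (SD, n = 3 per group), with overlapping groups. In the list of 13 coregulators, Ncoa2 and Med14 (15.4%) were lower at an unadjusted p under 0.05 and 0 genes were higher. Their log2 fold changes were -0.45 and -0.41, and were -0.31 and -0.34 without HFD library 3. Neither passed the threshold there, nor did Ncoa2 without HTG library 1 (-0.43) or 2 (-0.42), or Med14 with HFD library 2 (-0.42) or HTG libraries 2 (-0.39) or 3 (-0.38) left out. Over all 16 alternatives, other tools, filters and scalings included, Med14 lost the threshold in 13 and Ncoa2 in 7.

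Fkbp5, Tsc22d3 and Zbtb16 are widely used as readouts of receptor activity, and in all 3 genes HTG library 1 lay within the HFD range while HTG libraries 2 and 3 lay below it. Fkbp5 (ENSMUSG00000024222, chromosome 17, 28618068 to 28736498, minus strand) encodes an immunophilin that sits in the receptor complex and lowers its affinity for hormone. It had 70.9, 107 and 58.1 CPM in HFD libraries 1, 2 and 3 and 68.9, 18.5 and 26.3 CPM in HTG libraries 1, 2 and 3. The log2 fold change was -1.05 (standard error 0.47, 95% interval -2.12 to 0.02; edgeR, unadjusted p = 0.054, adjusted p = 0.212). Set against the receptor, whose level was steady, the FPKM of Fkbp5 was 1.40, 1.97 and 0.984 times that of Nr3c1 in the HFD libraries. In HTG libraries 1, 2 and 3 that ratio was 1.29, 0.354 and 0.475.

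Zbtb16 (ENSMUSG00000066687, chromosome 9, 48565597 to 48747522, minus strand) encodes the zinc finger repressor PLZF. It had 14.1, 10.7 and 20.3 CPM in the HFD libraries and 12.9, 3.36 and 8.11 CPM in the HTG libraries. The log2 fold change was -0.89 (standard error 0.45, 95% interval -1.92 to 0.14; edgeR, unadjusted p = 0.0829, adjusted p = 0.266). HTG library 2 was the lowest of all 6 libraries for this gene, as it was for Fkbp5 and Tsc22d3.

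Tsc22d3 (ENSMUSG00000031431, chromosome X, 139440277 to 139501408, minus strand) encodes GILZ, a leucine zipper protein that restrains inflammatory signalling. It had 78.5, 57.6 and 104 CPM in HFD libraries 1, 2 and 3 and 90.9, 36.8 and 56.0 CPM in HTG libraries 1, 2 and 3. HTG library 1 exceeded HFD libraries 1 and 2, and HTG library 3 lay just under the lowest HFD library. The log2 fold change was -0.39 (standard error 0.34, 95% interval -1.17 to 0.40; edgeR, adjusted p = 0.521).

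HTG library 1 weighed on all 3 readouts. Without it, the log2 fold changes were -1.85 for Fkbp5 (edgeR, adjusted p = 0.0435), -1.45 for Zbtb16 (adjusted p = 0.1) and -0.83 for Tsc22d3 (adjusted p = 0.15), each with an unadjusted p under 0.05. Without HTG library 2, the values were -0.72, -0.51 and -0.12, none with an unadjusted p under 0.05. Over all 16 alternatives the adjusted p of Fkbp5 lay between 0.0435 and 0.459, that of Zbtb16 between 0.1 and 0.523 and that of Tsc22d3 between 0.15 and 0.884 (edgeR, DESeq2 and limma). No label sets either library apart, and both were kept.

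Sgk1 (ENSMUSG00000019970, chromosome 10, 21758083 to 21875797, plus strand) encodes a serum- and glucocorticoid-induced kinase that acts on ion channels and transporters downstream of phosphoinositide 3-kinase. It had 27.2, 26.8 and 26.1 CPM in HFD libraries 1, 2 and 3 and 22.4, 20.6 and 14.6 CPM in HTG libraries 1, 2 and 3. All HTG libraries lay below all HFD libraries, and the HFD libraries were close together, with a highest level 1.04 times the lowest. The log2 fold change was -0.48 (standard error 0.19, 95% interval -0.91 to -0.04; edgeR, unadjusted p = 0.0349, adjusted p = 0.168). The unadjusted p was over 0.05 when HFD library 1, 2 or 3 or HTG library 2 or 3 was left out, and the fold change was -0.31 without HTG library 3. These unadjusted p-values lay between 0.0512 and 0.134 (edgeR).

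**Figure D2:**
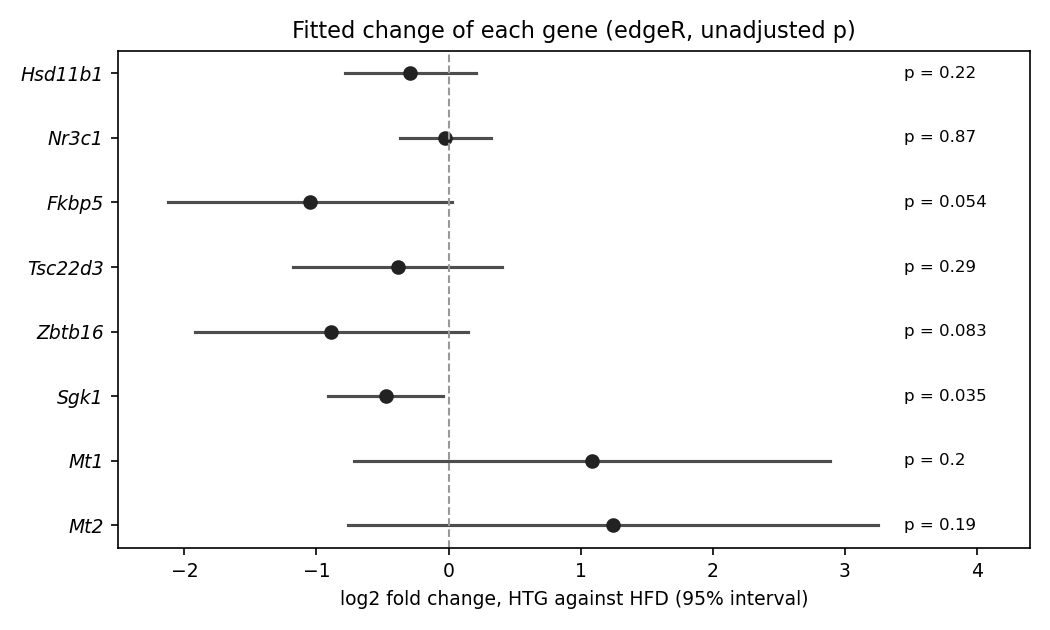
Fitted log2 fold change (horizontal axis, HTG against HFD; points) with its 95% interval (lines) and the unadjusted edgeR p, for each of the 8 genes. Only the interval of Sgk1, -0.91 to -0.04, leaves out 0, and those of Mt1 and Mt2 are the widest.

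The metallothionein genes were the most variable of the 8. Mt2 (ENSMUSG00000031762, chromosome 8, 94899292 to 94900196, plus strand) ends 5514 bases before Mt1 (ENSMUSG00000031765, chromosome 8, 94905710 to 94906955, plus strand) begins. They are paralogs of similar sequence, so the counts of each could include reads of the other. Both are switched on by metals, by inflammatory cytokines and by glucocorticoids. Mt1 had 474, 788 and 233 CPM in HFD libraries 1, 2 and 3 and 1207, 137 and 1827 CPM in HTG libraries 1, 2 and 3. Mt2 had 189, 356 and 115 CPM in the HFD libraries and 624, 41.0 and 899 CPM in the HTG libraries.

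For both genes HTG libraries 1 and 3 lay above every HFD library, and HTG library 2 lay below every HFD library. The highest HTG level was 13.4 times the lowest for Mt1 and 21.9 times for Mt2. Only 0.854% and 0.328% of the genes tested had HTG ratios at least as large, and the median ratio over these genes was 1.5. In the HFD group the ratios were 3.38 and 3.11, against a median of 1.56. The pair took between 0.0192% (HTG library 2) and 0.252% (HTG library 3) of a library's counts.

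The log2 fold changes were 1.08 for Mt1 (standard error 0.79, 95% interval -0.72 to 2.89) and 1.25 for Mt2 (standard error 0.87, 95% interval -0.76 to 3.25). Their adjusted p-values were 0.429 and 0.414 (edgeR). Fits of log2(FPKM + 0.1) with limma gave 0.55 and 0.48. Without HTG library 2 the values were 1.61 and 1.79, with an unadjusted p of 0.011 and 0.00508 and adjusted p-values of 0.208 and 0.198 (edgeR), and without HTG library 3 they were 0.45 and 0.62. Over the 16 alternatives the adjusted p reached 0.801 for Mt1 and 0.82 for Mt2. Mt1 and Mt2 moved together: the FPKM of Mt1 was between 0.912 and 1.18 times that of Mt2 in 5 libraries and 1.58 times in HTG library 2. Mt3 and Mt4, the metallothioneins of brain and skin, were nearly empty, with at most 16 counts for Mt3 in any library and 0 counts for Mt4 in all 6.

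**Figure D3:**
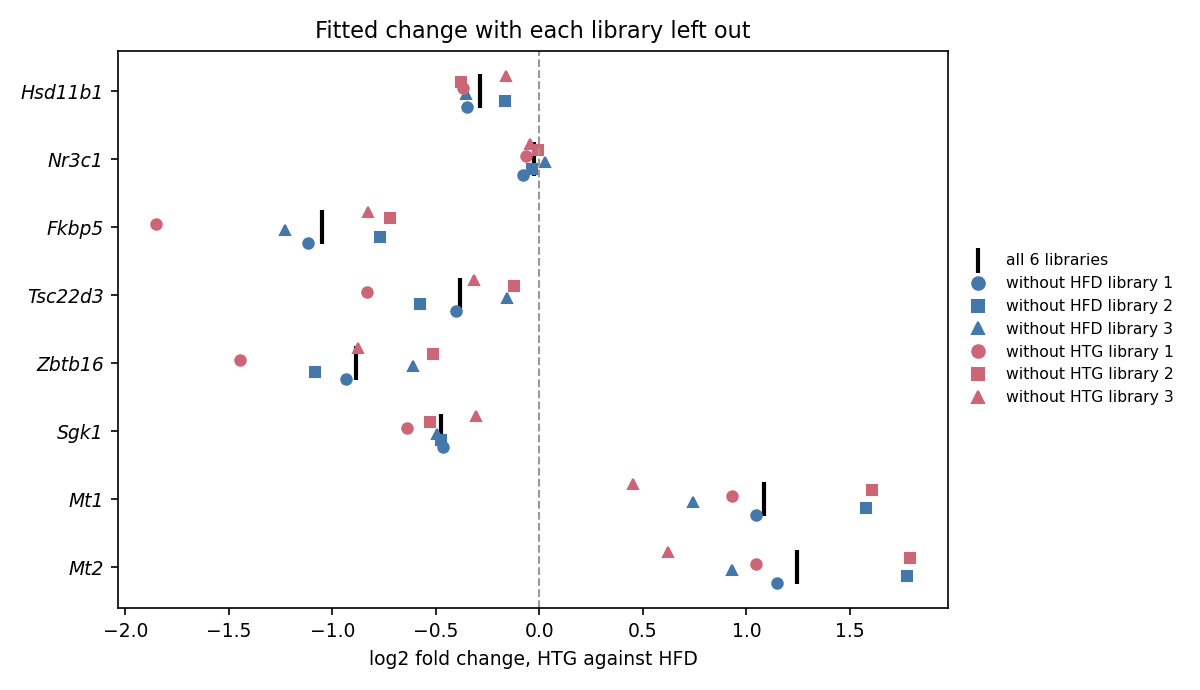
Fitted log2 fold change (horizontal axis) of each gene with all 6 libraries (black tick) and with 1 library left out (marker colour gives the group and shape the number of the library left out). Without HTG library 1, Fkbp5 goes to -1.85 and Zbtb16 to -1.45, and without HTG library 2, Mt1 goes to 1.61 and Mt2 to 1.79.

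Acute phase genes, which the liver makes in response to cytokines, and metal handling genes were read beside the metallothioneins. After Mt2, the gene whose log2 CPM ran closest to Mt1 was Fgg, the fibrinogen gamma chain (Pearson's r = 0.989 over 6 libraries). Fgg had 4411, 4911 and 2966 CPM in HFD libraries 1, 2 and 3 and 6155, 2547 and 8522 CPM in HTG libraries 1, 2 and 3. Haptoglobin, Hp, had 12627, 15708 and 8954 CPM and then 19402, 9273 and 25427 CPM, with HFD library 3 the lowest and HTG library 2 next. The serum amyloid gene Saa2 had 1590, 2092 and 1521 CPM in the HFD libraries and 2566, 106 and 14060 CPM in the HTG libraries. Fgg was picked for its likeness to Mt1, and Hp and Saa2 were named after their values were seen. In these acute phase genes HTG library 3 was the highest library and HTG library 2 was low. Elsewhere in the acute phase list, Saa3 was highest in HTG library 1, Crp in HFD library 2, and Il1rn and Il6ra in HFD library 1. For Saa4 and Orm3, HTG library 2 (338 and 47.8 CPM) lay above HFD libraries 2 and 3.

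Over the 18 acute phase genes, Socs3, Saa4 and Orm3 were higher and Il6ra was lower at an unadjusted p under 0.05 (3 and 1 genes, 16.7% and 5.56%). Over all genes tested, 12.3% were higher and 12.4% were lower. The median log2 fold change of the 18 was 0.65. Saa4 and Orm3 lost that threshold without HFD library 2 (0.98 and 1.22), HFD library 3 (0.93 and 1.61) or HTG library 3 (0.92 and 0.71), and Orm3 also with DESeq2 and limma, in 7 of 16 alternatives. The 18 genes summed to 37955 to 55798 CPM in the HFD group and to 27873 to 110653 CPM in the HTG group. None of the 18 had 0 counts in all libraries. Socs3, a feedback inhibitor of cytokine signalling, had 33.2, 31.3 and 12.4 CPM in the HFD libraries and 53.1, 117 and 248 CPM in the HTG libraries (log2 fold change 2.44, standard error 0.58; edgeR, adjusted p = 0.0629). Unlike the metallothioneins, Socs3 was higher in HTG library 2 than in any HFD library. The part of the acute phase in the metallothionein levels was not tested.

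Of the 10 metal handling genes tested, the metallothioneins included, 1 was higher and 3 were lower (Slc30a1, Slc39a4 and Mtf1) at an unadjusted p under 0.05. Over all genes tested, 12.3% were higher and 12.4% were lower. Slc30a10, a manganese exporter, had 8.25, 13.9 and 24.5 CPM in the HFD libraries and 51.7, 26.2 and 43.8 CPM in the HTG libraries (log2 fold change 1.38, standard error 0.40; edgeR, adjusted p = 0.0906). Slc30a1, the zinc exporter that zinc induces through the same factor as Mt1, had 31.5, 64.6 and 34.4 CPM in the HFD libraries and 32.0, 18.5 and 25.7 CPM in the HTG libraries. Its log2 fold change of -0.78 had the opposite sign to those of Mt1 and Mt2, whose intervals were too wide to give a direction. Slc30a1 was lowest in HTG library 2, as Mt1 and Mt2 were. Mtf1, which encodes that zinc-sensing factor, had 14.4 ± 1.01 CPM in the HFD group and 10.3 ± 2.41 CPM in the HTG group (SD, n = 3 per group; log2 fold change -0.49, edgeR, adjusted p = 0.195). The 3 lower genes each lost the threshold in several fits with 1 library left out: Slc30a1 was at -0.38 without HFD library 2, -0.59 without HTG library 2 and -0.77 without HTG library 3. Mtf1 lost it without any library but HTG library 1, at -0.54 to -0.36, and Slc39a4 without any but HFD library 2 and HTG library 3, at -0.42 to -0.37. With the other alternatives counted in, Mtf1 lost it in 11 of 16, Slc39a4 in 6 and Slc30a1 in 4. The part of metals in the metallothionein levels was not tested.

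**Figure D4:**
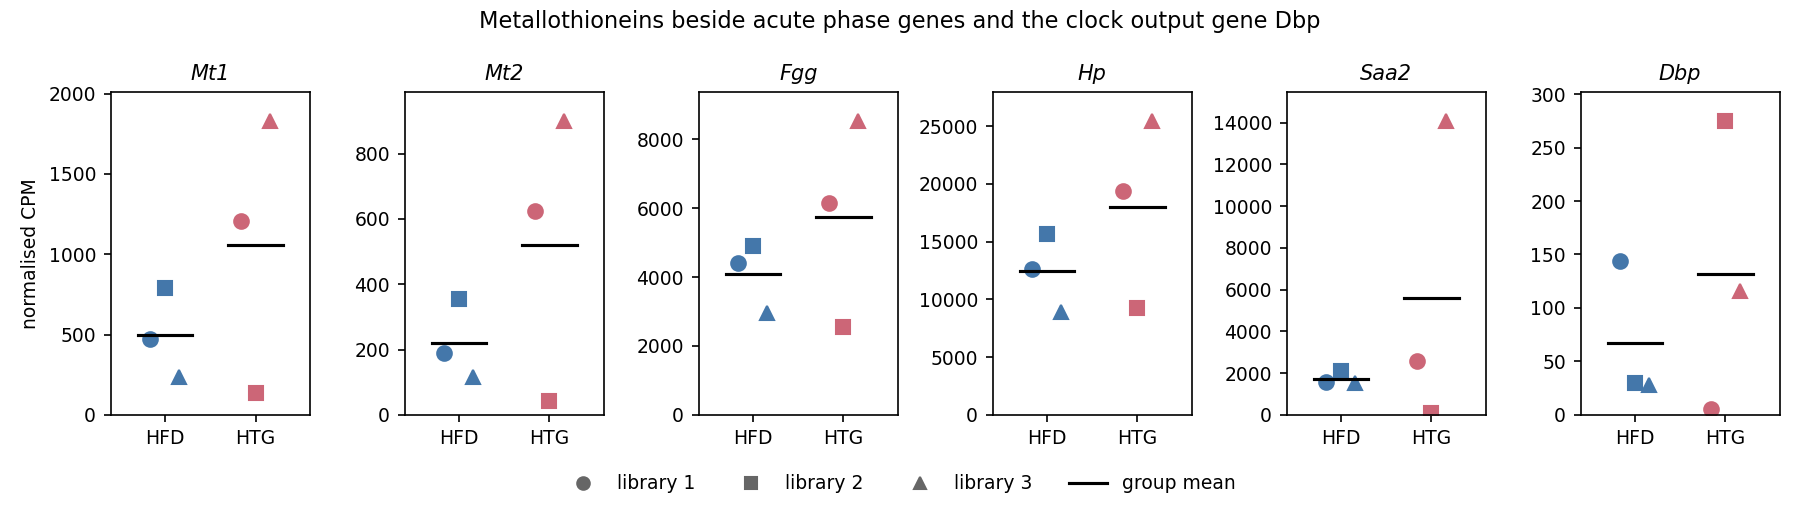
Normalised CPM (vertical axes, from 0, each with its own range) of Mt1, Mt2, the acute phase genes Fgg, Hp and Saa2 and the clock output gene Dbp in each library, with bars for group means. HTG library 3 is highest for the metallothioneins and the acute phase genes shown, and HTG library 2 is highest for Dbp at 274.

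Other known targets of the receptor, and the rest of the pathway, were taken from 5 lists with 65 tested genes besides the 8. At an unadjusted p under 0.05, 16 of them (24.6%) were lower in the HTG group and 2 (3.08%) were higher, where 12.4% of all genes tested were lower and 12.3% were higher. Of the 65 log2 fold changes 50 were negative, with a median of -0.32. The lists were chosen with earlier results of these data known, so these shares describe them and are not a test. The groups did not overlap in 22 lower genes and 1 higher gene, against 15.5% and 16.5% of all genes tested. The edgeR fit put 0 of them under an adjusted p of 0.05, and the lowest was 0.0538. DESeq2 put 7 lower genes and 1 higher gene under it, beside 1160 lower and 929 higher of all 29720 genes in that fit. With limma on log2(FPKM + 0.1) it was 4 lower genes and 0 higher, beside 552 and 326 of all 10930. The edgeR fit without HTG library 1 put 5 lower and 1 higher, beside 419 and 234 of all 19304. Leaving out any other library put 0 genes under it, as did both other scalings, the replicate block and limma without a filter. Without the filter on counts, edgeR put 1 lower gene under it, beside 76 of all genes. It put 2 with at least 10 counts in every library (315 of all genes) and 2 with counts divided by 4 (363). At an unadjusted p under 0.05, leaving out 1 library at a time gave between 12 and 20 lower genes, beside 8.09% to 14.8% of all genes. Of the 18 called genes, 8 kept their call under all 16 alternatives: Lpin1, Tdo2, Il6ra, Gpt2, Tat, Got1, Hsp90ab1 and Hspa4.

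Metabolic targets made up 8 of the 16 lower genes, among them Il6ra, which was also counted in the acute phase list. Of 17 tested, 8 (47.1%) were lower and 1 (5.88%) was higher, beside 12.4% and 12.3% of all genes tested. Their median log2 fold change was -0.77, against 0.03 over all genes tested. Lpin1, a phosphatidate phosphatase, had the smallest adjusted p (log2 fold change -1.73, standard error 0.27; edgeR, adjusted p = 0.0538). Tdo2, which encodes tryptophan 2,3-dioxygenase, had 1180, 1723 and 741 CPM in HFD libraries 1, 2 and 3 and 533, 307 and 257 CPM in HTG libraries 1, 2 and 3 (log2 fold change -1.73, standard error 0.39; edgeR, adjusted p = 0.0612). Il6ra, the interleukin-6 receptor, went from 62.6 ± 3.05 to 36.8 ± 7.25 CPM, and the alanine aminotransferase Gpt2 from 435 ± 80.0 to 240 ± 39.8 CPM (SD, n = 3 per group). In each of these 4 genes every HTG library lay below every HFD library, which the rule that named them required.

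Tyrosine aminotransferase, Tat, the classic liver target of the receptor, was named here after its values were seen. It had 1485, 2051 and 1918 CPM in the HFD libraries and 807, 372 and 1011 CPM in the HTG libraries (log2 fold change -1.32, standard error 0.37; edgeR, adjusted p = 0.0839). HTG library 1, which lay within the HFD range for Fkbp5, Tsc22d3 and Zbtb16, lay below it for Tat. Got1, Gls2 and the glucose-6-phosphatase gene G6pc were the other lower genes, at log2 fold changes of -1.53, -0.46 and -1.84. The groups overlapped for G6pc, with 70.8, 354 and 234 CPM in the HFD libraries and 119, 18.9 and 45.9 CPM in the HTG libraries. Gls2 lost the threshold without HFD library 1 (-0.45) or 3 (-0.45) or HTG library 3 (-0.46), and G6pc without HFD library 2 (-1.32) or 3 (-1.80) or HTG library 2 (-1.41) or 3 (-1.65). Pck1, the gluconeogenic enzyme, had 2860 ± 1280 CPM in the HFD group and 1803 ± 530.3 CPM in the HTG group (SD, n = 3 per group), with overlapping groups. Agxt, an aminotransferase of glyoxylate disposal, was the higher gene, from 135 ± 14.0 to 195 ± 22.4 CPM (SD, n = 3 per group; log2 fold change 0.52, edgeR, adjusted p = 0.136), and lost the threshold without HFD library 2 (0.45) or 3 (0.51) or HTG library 2 (0.47) or 3 (0.48), among 7 of the 16 alternatives.

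Of 18 general targets besides the 8 genes, 3 (16.7%) were lower and 1 (5.56%) was higher at an unadjusted p under 0.05. Over all genes tested these shares were 12.4% and 12.3%. Per1, a clock gene with its own glucocorticoid response, had 52.5, 72.4 and 49.1 CPM in the HFD libraries and 42.5, 45.3 and 29.2 CPM in the HTG libraries (log2 fold change -0.57, edgeR, adjusted p = 0.174), and it lost the threshold without HFD library 1 (-0.64) or 2 (-0.38) or HTG library 3 (-0.39). Ddit4, an inhibitor of mTOR signalling, was also lower in every HTG library (log2 fold change -1.01, edgeR, adjusted p = 0.145), which lost the threshold without HFD library 3 (-0.59) or HTG library 2 (-0.77) or 3 (-0.99). Pdk4 and Bcl6 passed the unadjusted threshold with overlapping groups, at log2 fold changes of -2.61 and 1.15. The fold change of Pdk4 was -1.23 without HFD library 2, with an unadjusted p of 0.127 (edgeR), and without HTG library 2 it was -2.14 and that of Bcl6 was 0.85, and neither passed the threshold. Klf15 and Dusp1, further targets in which no HTG library reached the lowest HFD library, had unadjusted p-values of 0.0621 and 0.0666 (edgeR).

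**Figure D5:**
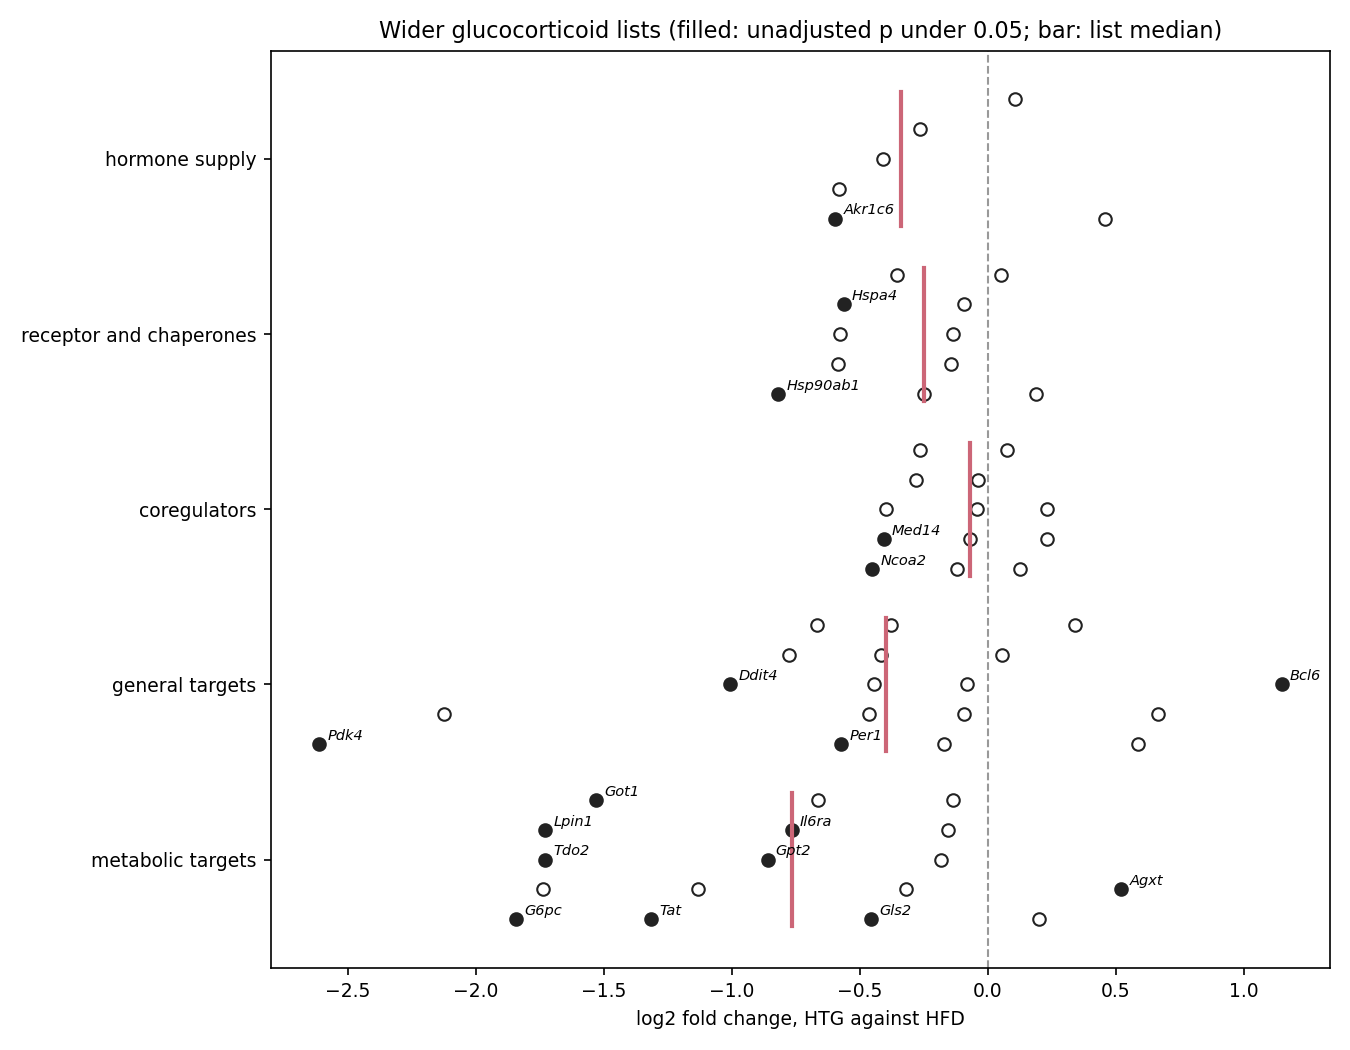
Log2 fold change (horizontal axis, HTG against HFD) of the 65 other pathway genes in 5 lists, filled and named where the unadjusted p was under 0.05, with a bar at each list's median. Metabolic targets lie furthest to the left, with a median of -0.77, and coregulators lie closest to 0, at -0.07.

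Clock output differed between libraries of the same group. Dbp, whose level swings over the day in liver, had 144, 29.4 and 28.3 CPM in HFD libraries 1, 2 and 3 and 5.83, 274 and 116 CPM in HTG libraries 1, 2 and 3. Arntl, which peaks at another time of day, had 0.969, 7.54 and 4.94 CPM and then 12.5, 0.89 and 1.30 CPM. HTG library 1 thus had the lowest Dbp and highest Arntl of the 6, and HTG libraries 2 and 3, in which Fkbp5 and Zbtb16 were low, had more Dbp and less Arntl than HTG library 1. HFD library 1 also had high Dbp and low Arntl, with Fkbp5 at 70.9 and Zbtb16 at 14.1 CPM. Of 17 clock genes tested, 1 (Per1, 5.88%) was lower and 0 were higher at an unadjusted p under 0.05. Per1 was also counted among the general targets. Over all genes tested, 12.4% were lower and 12.3% were higher. The part of the clock in the levels of the 8 genes was not tested.

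Markers of other cell types were read in the same way. Of 10 Kupffer cell markers, Adgre1 and Cd5l (2 genes) were lower and 0 were higher at an unadjusted p under 0.05, with a summed level between 805 and 1461 CPM in the HFD group and between 604 and 1114 CPM in the HTG group. Of 11 leukocyte markers tested, 1 (Lyz2) was lower, and their sum lay between 484 and 636 CPM and between 336 and 492 CPM. Of 10 sinusoidal endothelial markers, 0 passed (edgeR). Of 10 stellate cell markers Des was higher and Reln lower, of 9 bile duct markers Sox9 was higher and Epcam lower, and of 7 red cell markers Alas2 was lower. Adrenal cortex markers were near empty, with sums from 2.31 to 7.13 CPM, and Cyp11b1 had 0 counts in all libraries, as did 3 of the 7 exocrine pancreas markers found in the table. Over all genes tested, 12.4% were lower and 12.3% were higher at that threshold. The part of these cells in the results was not tested.

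Genes whose levels ran most like each of the 8 across the libraries were listed from 14369 genes whose counts averaged 50 or more. For each of the 8, such genes were found at a Pearson's r between 0.986 and 0.999, over 6 libraries that differ in depth and group. Fkbp5 ran closest to Zfp93, a zinc finger gene, and to Ssx2ip. Sgk1 ran closest to Hpgd, which degrades prostaglandins (r = 0.997), and to Gpnmb, a macrophage glycoprotein that had 133, 105 and 108 CPM in the HFD libraries and 53.1, 23.0 and 4.27 CPM in the HTG libraries. Mt2 ran closest to Apon and to Mt1, Tsc22d3 to Dera and the chemokine gene Cxcl9, Zbtb16 to Tapbp and Cideb, and Hsd11b1 to the mitochondrial deacetylase gene Sirt3 and to Snx2. Nr3c1, which varied least, ran closest to Lrmda and Il1r2.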

How the data were processed

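Samples were grouped by their titles. The authors deposited estimated counts of each gene as whole numbers, with no scaling across libraries. They also deposited FPKM values, scaled by transcript length and library size. The submitters' processing notes name HISAT2, StringTie, SAMtools and the rat build mRatBN7.2, yet the rows are mouse genes, so the build of the coordinates is not stated. RefSeq tables of the rat were not used here. Low counts peaked at 4 (6450 times, against 2549 for 3 and 1757 for 5) and at 8 (3333 times). Values of 1 and 2 were also common (5104 and 4229 times), so a step of 4 holds only in part. At about 4 counts each, 3 fragments, the limit of an empty gene, were taken as 12 counts. This limit covers counting error only. The sources do not say if counting was stranded, so genes that overlap, lie antisense or have near copies are uncertain.

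Counts were fitted over the whole table with edgeR 4.0.16 in R 4.3.3 (TMM scaling, filterByExpr, glmQLFit, glmQLFTest, group as the only term, two-sided), with Benjamini-Hochberg adjustment over the 18455 genes tested. Fold changes are unshrunk, the standard error is the size of the log2 fold change divided by the square root of F, and intervals use the 0.975 quantile of t. Levels are CPM on the normalised library size, with mean ± SD over 3 libraries. The named genes were the 8 members and, from each list, up to 4 genes in each direction with an unadjusted p under 0.05 and groups that did not overlap, those set beside a member, and the 2 genes most like each member. Other genes were named after their values were seen. The members and lists were chosen with earlier results of these data known. The scripts were tested on simulated counts. Alternatives were DESeq2 1.42.0, limma 3.58.1 on FPKM, other scalings and filters, counts divided by 4, a replicate block and each library left out.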

Additional observations from a re-analysis of the deposited data

How the results depend on the processing

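Of the 8 genes, 7 kept the direction of their fold change under all 16 alternatives, and Nr3c1 turned sign with upper-quartile scaling (0.0094) and without HFD library 3, with a range of -0.080 to 0.027 over the libraries left out. The number of the 8 that were lower at an unadjusted p under 0.05 was 1. It was 3 with DESeq2 (8.82% of all genes in that fit were lower), 2 without the filter (8.75%), 2 with at least 10 counts in every library (13.6%) and 2 in each of the 3 limma fits on FPKM (9.24% to 19.2%). It was 0 to 4 with 1 library left out, 4 without HTG library 1 (14.8%) and 0 without any of the other 5 libraries (8.09% to 11.3%). The number higher was 0 in every fit but that without HTG library 2, where Mt1 and Mt2 made it 2 (range 0 to 2; 8.07% of all genes were higher there). At an adjusted p under 0.05 the number lower was 0 to 1 with 1 library left out, the 1 being Fkbp5 without HTG library 1. Of the 65 other pathway genes, 2 were higher, 1 in each limma fit and 0 to 3 with 1 library left out. Of the 18 of them called at an unadjusted p under 0.05, 10 lost that call under at least 1 alternative, Med14 most often, in 13 of 16. The cause of these changes was not tested.

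The groups share replicate numbers only as names. Deviations from the group means correlated at -0.13, -0.11 and 0.19 for numbers 1, 2 and 3, and only for number 3 was the own number the best match, so the libraries were not taken as paired. With the replicate number as a block, 3 of the 8 genes were lower at an unadjusted p under 0.05 (10.5% of all genes), and of the other pathway genes 12 were lower and 1 was higher. Over all genes, the edgeR fit with the block left 0 genes at an adjusted p under 0.05 (1926 higher and 1941 lower at an unadjusted p), where DESeq2 called 929 higher and 1160 lower and the counts divided by 4 gave 459 and 363. The filter on low counts also moved this count, to 86 higher and 76 lower without it and to 369 and 315 with at least 10 counts in every library. The limma fits gave 326 and 552, 329 and 555 with a pseudocount of 1, and 0 and 0 without a filter (2284 and 2712 at an unadjusted p). Leaving out HTG library 1 gave 234 higher and 419 lower. With 3 libraries in a group, the intervals of Mt1 and Mt2 were too wide to give a direction.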
